A study of Homo sapiens with 16 samples.

Results

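Hydroxyurea (HU) was compared in the presence of an ATR inhibitor: U2OS cells given HU together with VE-822 were set against U2OS cells given VE-822 alone. U2OS is a human osteosarcoma line. The comparison used 8 of the 16 RNA-seq libraries of the study, 4 with both drugs and 4 with VE-822 alone, chosen by treatment as labelled. All cells carried an siRNA: siNT, which targets no gene, or siSETD2, directed at the mRNA of SETD2, the enzyme that trimethylates lysine 36 of histone H3, and the labels give 48 h after transfection. HU was used at 2 mM and VE-822 at 2 µM, each for 4 h. Every combination of siRNA and drug was a pair of libraries, R1 and R2, so each treatment had 2 libraries with siNT and 2 with siSETD2. The other 8 libraries, untreated cells and cells given HU without inhibitor, served as a reference for the same drug in the absence of VE-822. Nothing in the labels says that R1 and R2 came from separate cultures, so p-values rest on a spread between libraries that may be technical only.

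HU blocks ribonucleotide reductase, the enzyme that makes deoxynucleotides, and so slows or stalls replication forks. ATR is the kinase that senses stalled forks, activates CHK1, limits origin firing and holds back entry into mitosis, and VE-822 inhibits it. With ATR blocked, cells in HU are known to lose this restraint, and forks can collapse into breaks that activate ATM and p53.

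The siRNA lowered its target in both treatments. SETD2 (chr3:47016429-47163967, minus strand, GRCh38) stood at 9.25 and 8.87 FPKM in the siNT libraries with VE-822 and at 4.62 and 3.96 FPKM in those with siSETD2. With HU and VE-822 it stood at 7.41 and 7.34 FPKM with siNT and at 2.64 and 3.67 FPKM with siSETD2. FPKM is fragments scaled to exon length and to the fragments of the library, a level that can be compared between genes. HU did not move SETD2 past the threshold in the presence of VE-822 (log2 difference -0.31 ± 0.18 SE, limma adjusted p = 0.203).

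The VE-822-alone libraries may be a separate batch, although the labels name none, and batch and treatment cannot be told apart in these 4 libraries. On the first principal component, which held 46.1% of the variance, they lay between 29.46 and 35.27, while the other 12 lay between -33.32 and 7.23. Among those 12 the replicate numbers separated as well: the 6 R1 libraries lay between -33.32 and -20.54 and the 6 R2 libraries between 0.86 and 7.23. The depth was 22310806 to 31101932 fragments per library over all 16, and 24987647 to 31101932 in the 4 with VE-822 alone. Means were below 0.1 FPKM for 7 of 11 blood cell markers (PTPRC, CD3E, MS4A1, LYZ, HBA1, HBB and NKG7), for 7 of 11 epithelial markers (CDH1, KRT5 and GRHL2 among them) and for 3 of 5 endothelial markers (CDH5, KDR and VWF). Of 9 osteoblast-lineage markers, SP7, IBSP and DLX5 were also below 0.1 FPKM, and RUNX2 stood at 5.85 to 6.91 FPKM with VE-822 and 0.91 to 1.62 FPKM with HU and VE-822. Summed levels of the epithelial markers were 59.4 to 69.2 FPKM with VE-822, 72.5 to 113 FPKM with both drugs and 90.2 to 121 FPKM in the other 8 libraries. Those of the blood cell markers were 2.94 to 3.69, 1.52 to 2.34 and 1.35 to 2.71 FPKM, those of the endothelial markers 0.513 to 0.657, 0.448 to 0.606 and 0.449 to 0.855 FPKM, and those of the osteoblast markers 80.1 to 104, 89.4 to 295 and 78.3 to 391 FPKM, in the same order. Their part in the results was not tested.

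Adding HU to VE-822 was accompanied by a difference in 3857 of the 13088 genes tested (29.5%), of which 2286 (17.5%) were higher and 1571 (12%) were lower. Genes were tested when their mean over the 16 libraries was at least 1 FPKM, and a call means a limma adjusted p under 0.05 for the difference in log2(FPKM + 1) averaged over both siRNAs. In the same fit, HU without inhibitor gave 14 calls (0.107%), 5 higher (0.0382%) and 9 lower (0.0688%). The test of the difference between these responses, with minus without VE-822, gave 1297 calls (9.91%). In bulk RNA, fewer cells of a kind and less RNA per cell cannot be told apart. The number of calls fell to 2563 without the R1 library of siNT with both drugs, to 2269 without the R1 library of siSETD2 with both drugs, and to 2454, 2278 and 2384 without the R2 library of siNT, the R1 library of siSETD2 and the R2 library of siSETD2 given VE-822 alone. Scaling also moved the balance of calls. With every library rescaled to the same sum 2532 were higher and 1091 lower, and with 75th percentile scaling 1668 were higher and 1991 lower.

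For most called genes the VE-822-alone libraries were the ones that stood apart. In 1237 of the 2286 genes called higher, all 4 VE-822-alone libraries were below each of the other 12 libraries, and in 936 of the 1571 genes called lower they were above each of the other 12. Over all genes tested, the VE-822-alone libraries were below the 12 others in 1402 genes (10.7%) and above them in 1063 (8.12%). The 4 libraries with both drugs lay above the 12 others in 91 genes (0.695%) and below them in 40 (0.306%), and 82 and 34 of these were called higher and lower. For genes called higher, the median log2 difference was 0.50 between both drugs and VE-822 alone, -0.40 between VE-822 alone and untreated cells, 0.12 between both drugs and untreated cells, and 0.02 between HU and untreated cells. For genes called lower, the same medians were -0.56, 0.50, -0.08 and 0.01. In both sets of genes the median difference from untreated cells was smaller with both drugs than with VE-822 alone. The levels with VE-822 alone enter every value of this comparison, so levels in untreated cells or in HU alone are given beside many of them. Whether a batch contributed was not tested.

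**Figure D1:**
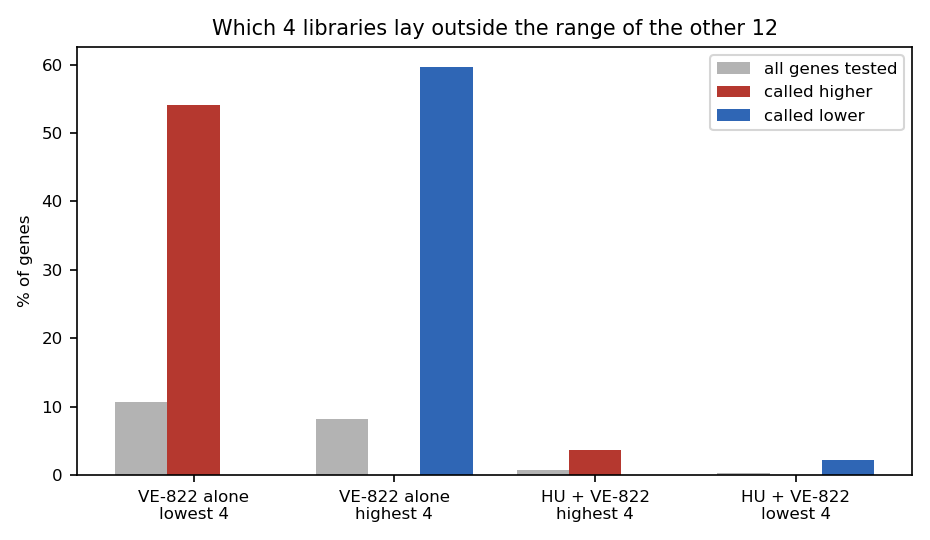
Share of genes, in %, in which 1 treatment's 4 libraries all lay below (lowest 4) or above (highest 4) the other 12, for all 13088 genes tested (grey), the 2286 called higher (red) and the 1571 called lower (blue) with HU and VE-822 against VE-822. The VE-822-alone libraries were the lowest 4 in 1237 of the genes called higher and the highest 4 in 936 of the genes called lower, and the libraries with both drugs stood apart in 82 and 34.

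Targets of p53, the tumour suppressor that stops the cell cycle after DNA damage, were the list with the largest share of genes called higher. Of 35 tested members of 39, 24 rose (68.6%, against 17.5% of all genes) and 2 fell (5.71%, against 12%). The median difference was 0.70, against 0.05 over all genes tested. CDKN1A (chr6:36676460-36687339), the inhibitor of cyclin-dependent kinases, stood at 34.4, 32.8, 34.8 and 39.1 FPKM in the VE-822-alone libraries and at 149, 133, 137 and 146 FPKM in those with both drugs. Here and below, values of 4 libraries are in the order siNT R1, siNT R2, siSETD2 R1 and siSETD2 R2. CDKN1A rose by 1.97 ± 0.25 (SE) on the log2 scale (limma adjusted p = 0.000439), and the groups did not overlap. Untreated cells held 88.1, 47.8, 124 and 52.2 FPKM of CDKN1A, above every VE-822-alone library, with R1 higher than R2 for both siRNAs. With HU alone the values were 144, 110, 131 and 138 FPKM, which overlapped those with both drugs. The HU responses of CDKN1A with and without VE-822 differed by 1.135, which did not pass the test (limma adjusted p = 0.0638).

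PPM1D (chr17:60600183-60666280), the phosphatase that switches off ATM and p53 signalling, was called both with and without the inhibitor. It stood at 8.10, 7.19, 5.84 and 5.82 FPKM with VE-822 and at 15.4, 13.8, 12.2 and 13.9 FPKM with both drugs, a rise of 0.94 ± 0.10 (limma adjusted p = 0.000173). The change in HU without inhibitor was 0.70 (adjusted p = 0.0313), a call lost in each of the 8 fits that left out 1 library given VE-822, which share its estimate of the spread, and the difference between these responses was 0.25 (adjusted p = 0.275). Untreated cells held 7.16 to 9.86 FPKM of PPM1D, a range that overlapped that of VE-822 alone.

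Other p53 targets rose as well. SESN2, a stress-induced inhibitor of mTORC1 signalling, rose from 10.5 to 13.6 FPKM in the VE-822-alone libraries to 25.7 to 38.2 FPKM, by 1.32 ± 0.15 (limma adjusted p = 0.000224). MDM2, the ubiquitin ligase of p53, rose by 1.05 ± 0.21 (adjusted p = 0.00431), BTG2, an antiproliferative gene, by 1.28, and GDF15, a secreted stress cytokine, by 1.14. BBC3, which encodes the pro-apoptotic protein PUMA, rose by 1.04, and TNFRSF10B, a death receptor, by 0.66. BTG2, BBC3, PLK2, FAS, PMAIP1 and KITLG are named here after their values were seen.

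The p53 list did not move as one. PMAIP1, which encodes the pro-apoptotic protein NOXA, fell by 0.64 (limma adjusted p = 0.0156) and KITLG, the ligand of the receptor KIT, fell by 0.84 (adjusted p = 0.0454). PMAIP1 was higher in VE-822 alone than in all 12 other libraries, with 88.1 to 102 FPKM against 35.9 to 58.5 FPKM in untreated cells. KITLG stood at 3.82 to 6.44 FPKM in VE-822 alone, at 0.909 to 1.39 FPKM in untreated cells and at up to 5.46 FPKM in HU alone. Of the 8 fits that left out 1 library of the comparison, 4 lost the call of PMAIP1 and 6 that of KITLG. FAS, a death receptor, had a difference of 0.09 with the inhibitor (adjusted p = 0.718) and of 0.77 without it (adjusted p = 0.163). In 11 of the 35 genes the VE-822-alone libraries lay below all 12 others, and in 2 above them (10.7% and 8.12% of all genes). Against untreated cells, the median of the list was 0.33 with both drugs and 0.395 with HU alone. Without the R1 libraries of both drugs, 15 members were called higher and 1 lower, while of all genes tested 6.8% were higher and 4.81% lower. The difference of the responses, with minus without VE-822, was called higher in 2 of the 35 and lower in 3. Over all genes tested the shares were 5.03% and 4.88%.

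**Figure D2:**
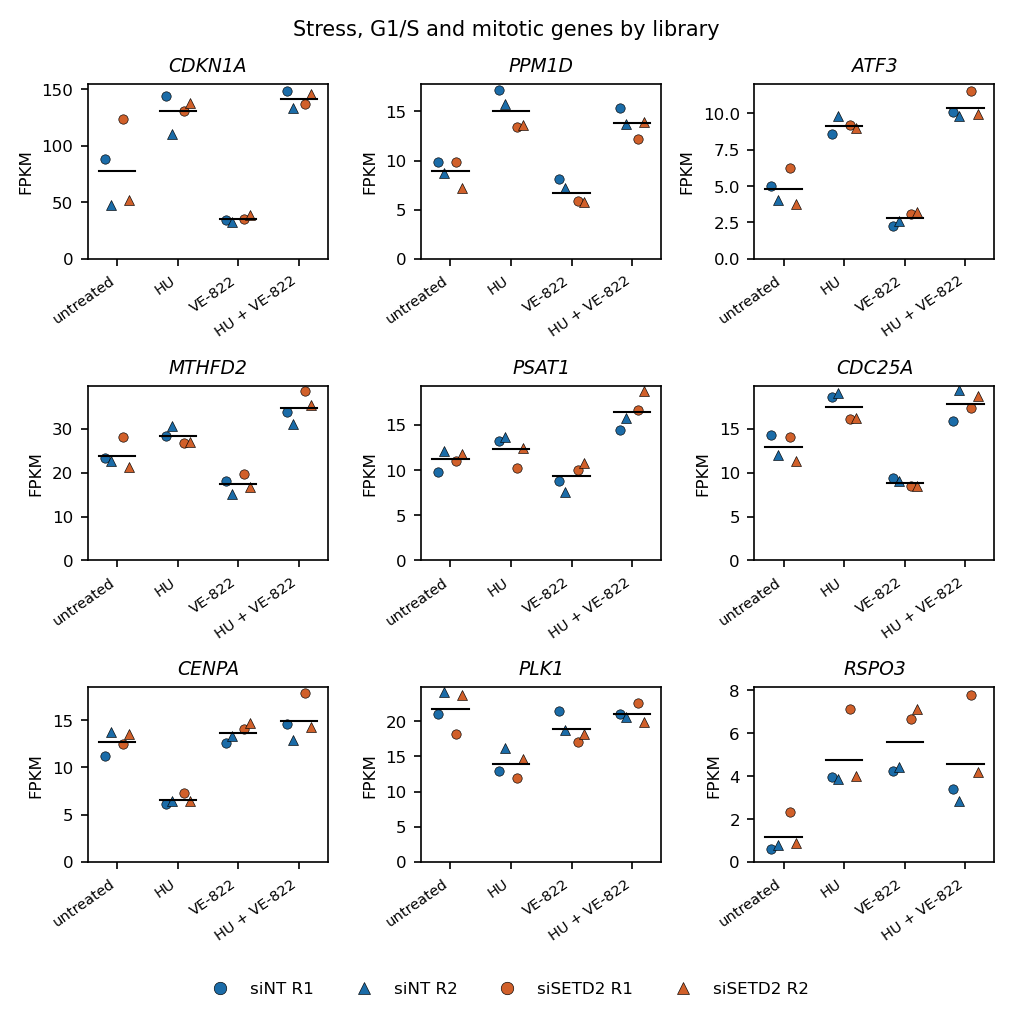
FPKM in each of the 16 libraries (vertical axis, from 0) by treatment for 9 genes; colour marks the siRNA, the symbol marks R1 or R2, and the bar is the mean of 4 libraries. The libraries with both drugs were above those with VE-822 in CDKN1A, PPM1D, ATF3, MTHFD2, PSAT1 and CDC25A, and CENPA and PLK1 were low in HU alone.

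E2F target genes of the G1/S transition, which encode cyclin E, licensing factors and replication proteins, had no member called lower. Of 63 tested members, 8 rose and none fell (12.7% called higher against 17.5% of all genes), with a median of 0.10 with the inhibitor and 0.16 without it. The share depended on the scaling: with libraries rescaled to the same sum 18 members (28.6%) were called higher, against 19.3% of all genes. With voom 14 were, against 19.1% of all genes. The median was -0.18 over R1 libraries and 0.34 over R2 libraries, and it fell to -0.03 and -0.05 without the R2 library of siNT or of siSETD2 given both drugs. CDC25A, the phosphatase that activates CDK2 and that ATR signalling marks for destruction as a protein, stood at 9.40, 9.08, 8.48 and 8.50 FPKM with VE-822 and at 15.9, 19.4, 17.4 and 18.7 FPKM with both drugs. It rose by 0.93 ± 0.09 (limma adjusted p = 0.00012), and its change in HU without inhibitor was 0.41 (adjusted p = 0.173). The difference between these was 0.52 (adjusted p = 0.0324), with untreated libraries at 11.4 to 14.2 FPKM, above all VE-822-alone libraries. CCNE1, which encodes cyclin E1, rose by 1.03 ± 0.15 (adjusted p = 0.00117) from 12.6 to 16 FPKM to 27.6 to 32.4 FPKM. CDC6, which loads the replicative helicase at origins, rose by 0.57 ± 0.10 (adjusted p = 0.0029), from 12.6 to 14.6 FPKM to 18.3 to 22.6 FPKM.

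Several well-known members did not pass the test. CCNE2, the second cyclin E gene, differed by 0.28 (limma adjusted p = 0.334), E2F1, the transcription factor, by -0.20 (adjusted p = 0.698), PCNA, the sliding clamp, by 0.36 (adjusted p = 0.107) and CHEK1, which encodes CHK1, by -0.23 (adjusted p = 0.241). E2F1 showed how far the R1 and R2 libraries could part: with both drugs it stood at 15.5 and 17.7 FPKM in R1 and at 33.2 and 35.8 FPKM in R2, while the VE-822-alone libraries held 22.7 to 31.6 FPKM. PCNA likewise stood at 110 and 103 FPKM in R1 and 146 and 155 FPKM in R2 with both drugs, against 92.1 to 106 FPKM with VE-822.

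The promoters of CDC25A and CDC6 are shown because these are rising members of the list whose window holds an E2F motif. Each runs from 250 bases before to 20 bases after the RefSeq start site (build GRCh38.p14), 5′ to 3′ along the gene, with matches to TTTCGCGC, TTTGGCGC or TTTCCCGC on either strand in capitals. The CDC25A window is chr3:48188398-48188667 on the minus strand and the CDC6 window is chr17:40287629-40287898 on the plus strand. 
CDC25A: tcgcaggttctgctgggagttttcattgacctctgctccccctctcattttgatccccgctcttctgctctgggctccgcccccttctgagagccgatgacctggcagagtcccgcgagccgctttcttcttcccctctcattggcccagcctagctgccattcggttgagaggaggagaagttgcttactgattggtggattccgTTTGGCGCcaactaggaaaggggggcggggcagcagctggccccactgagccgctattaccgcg
CDC6: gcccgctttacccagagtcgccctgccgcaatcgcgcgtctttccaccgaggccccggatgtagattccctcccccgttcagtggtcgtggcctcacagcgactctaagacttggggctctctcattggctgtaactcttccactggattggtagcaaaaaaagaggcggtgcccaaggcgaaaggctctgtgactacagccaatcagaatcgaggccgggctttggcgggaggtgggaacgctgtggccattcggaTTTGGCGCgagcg
The match starts at -44 in CDC25A and at 8 in CDC6, counted from the start site. Over windows of 300 bases (250 before to 50 after the start), 26 of the 54 G1/S members with a promoter entry held 1 of these motifs (48.1%), against 4.94% of the 8805 tested genes with an entry. CCNE1 and RRM2 held none in this window.

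Genes that supply deoxynucleotides, the pool that HU depletes, were called higher in 10 of 23 members (43.5%, against 17.5% of all genes) and lower in 1 (4.35%, against 12%), with a median of 0.35, against 0.05 over all genes. RRM2, the subunit of ribonucleotide reductase made in S phase and the target of HU, stood at 8.78, 6.83, 9.83 and 9.05 FPKM with VE-822 and 10.0, 11.8, 13.7 and 17.2 FPKM with both drugs. It rose by 0.54 ± 0.12 (limma adjusted p = 0.00808). RRM2B, the p53-induced subunit of the same enzyme, rose by 0.91 ± 0.31 (adjusted p = 0.0449) from 9.83 to 12.8 FPKM to 16 to 32.5 FPKM, with R1 above R2 for both siRNAs, and 6 of the 8 fits without 1 library lost its call. CTPS1, which makes CTP, rose by 0.80, NME1, a nucleotide kinase, rose by 0.74, and TK2, the mitochondrial thymidine kinase, fell by 0.47. In HU without inhibitor none of the 23 passed the test and the median was 0.12.

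Checkpoint genes were called in both directions. Of 33 tested genes of the ATR, ATM and DNA-PK checkpoint, 4 rose and 4 fell (12.1% each, against 17.5% and 12% of all genes), and the median was -0.09, turning to 0.01 with libraries rescaled to the same sum. With that scaling 6 were called higher and 1 lower (18.2% and 3.03%, against 19.3% and 8.34% of all genes). With 1 library left out, 1 to 3 were lower. Against untreated cells the median was 0.04 with VE-822 alone and 0.03 with both drugs. ATR itself stood at 4.15 to 4.79 FPKM with VE-822 and at 3.43 to 4.68 FPKM with both drugs (limma adjusted p = 0.384). RAD18, a ubiquitin ligase that acts at stalled forks, rose by 0.42, from 4.00 to 4.94 FPKM to 5.98 to 6.44 FPKM. XRCC6, which encodes the Ku70 subunit of the end-joining factor Ku, rose by 0.53 (adjusted p = 0.00907), while XRCC5, which encodes its partner Ku80, differed by -0.16 (adjusted p = 0.656). HLTF, a fork-remodelling translocase, fell by 0.67, and WEE1, the kinase that restrains CDK1, fell by 0.33 (adjusted p = 0.0467), a call lost whichever of the 8 libraries was left out. ATR and XRCC5 are named after their values were seen.

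Homologous recombination and Fanconi anaemia genes gave 2 higher and 4 lower of 30 tested (6.67% and 13.3%, against 17.5% and 12% of all genes), with a median of -0.08. With libraries rescaled to the same sum 4 were higher and 2 lower (13.3% and 6.67%, against 19.3% and 8.34% of all genes), and the median was 0.005. RAD52, which anneals single-stranded DNA, was among the few genes in which the libraries with both drugs lay below all 12 others. It stood at 9.54, 8.90, 10.3 and 9.31 FPKM with VE-822, at 6.89, 7.06, 7.15 and 6.56 FPKM with both drugs and at 7.16 to 9.13 FPKM in the other 8 libraries, and it fell by 0.41 ± 0.08 (limma adjusted p = 0.00351). FANCF, a subunit of the Fanconi core complex, fell by 0.59, RAD51C, a recombination factor, rose by 0.50, and RBBP8, which encodes the end-resection factor CtIP, rose by 0.33 (adjusted p = 0.0286). Leaving out 1 library lost the call of RBBP8 in 6 of 8 fits and that of RAD51C in 4.

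Genes of G2 and mitosis had mostly lower levels with HU alone, and less so with VE-822 present, although CENPA, PSRC1 and PIF1 were the only members called in HU alone. The call of PIF1 there was lost in each of the 8 fits that left out 1 library given VE-822, and that of CENPA in 0. In HU without inhibitor, 47 of 49 members had a difference below 0, with a median of -0.37. With VE-822 present, 28 of 49 had a difference below 0 and the median was -0.08, or 0.01 with libraries rescaled to the same sum. The difference of the responses, with minus without VE-822, was called higher in 10 members and lower in none, against 658 (5.03%) and 639 (4.88%) of all genes tested, and its median over the list was 0.27. VE-822 alone differed from untreated cells by a median of 0.065 in this list. No member had its VE-822-alone libraries below the 12 others, while 3 had them above (10.7% and 8.12% of all genes). Without 1 library of the comparison, 3 to 10 members were called in this difference, the fewest without the R1 library of siSETD2 with VE-822. Without the R1 libraries of both drugs 1 was called higher, while of all genes 0.818% were higher and 1.18% lower. In the comparison of both drugs with VE-822, 3 members rose and 7 fell (6.12% and 14.3%, against 17.5% and 12% of all genes). This balance turned to 7 higher and 2 lower with libraries rescaled to the same sum (14.3% and 4.08%, against 19.3% and 8.34% of all genes). With 1 library left out, 1 to 5 were lower.

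CENPA (chr2:26764289-26801067), the histone H3 variant of the centromere, was the mitotic gene with the smallest adjusted p for this difference. It stood at 11.2, 13.7, 12.5 and 13.5 FPKM in untreated cells and at 6.12, 6.43, 7.25 and 6.49 FPKM in HU, a fall of 0.85 (limma adjusted p = 0.0155). With VE-822 it stood at 12.6, 13.3, 14.1 and 14.7 FPKM, and with both drugs at 14.6, 12.9, 17.9 and 14.3 FPKM (0.11 ± 0.10, adjusted p = 0.4). Only the HU libraries were low, and the other 3 treatments overlapped. The difference of the responses was 0.97 (adjusted p = 0.00289).

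PLK1, the kinase that drives mitotic entry, stood at 12.9, 16.2, 11.9 and 14.7 FPKM in HU, below every library of the other treatments, which held 17.0 to 24.2 FPKM. Its difference was -0.61 without inhibitor (limma adjusted p = 0.117) and 0.15 with it (adjusted p = 0.34), and the responses differed by 0.76 (adjusted p = 0.0179). The same test was passed by AURKA, a mitotic kinase (0.64), CDC20, an activator of the anaphase-promoting complex (0.66), UBE2C and UBE2S, its ubiquitin-conjugating enzymes (0.82 and 0.84), PTTG1, which encodes securin (0.64), NEK2, a centrosome kinase (0.79), FAM83D, a spindle protein (0.65), and PIF1, a DNA helicase (1.15). AURKA, CDC20, UBE2C, PTTG1, NEK2, FAM83D and PIF1 are named after their values were seen. CCNB1 and CDK1, which encode the mitotic cyclin and its kinase, did not pass, with 0.32 (adjusted p = 0.196) and 0.26 (adjusted p = 0.293).

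Not every mitotic gene was level with VE-822 present. PSRC1, a microtubule regulator, fell in both settings: by 1.48 without inhibitor (limma adjusted p = 0.0225; lost in 6 of the 8 fits that left out 1 library given VE-822), from 13.9 to 27.1 FPKM to 5.77 to 7.69 FPKM, and by 0.62 with it (adjusted p = 0.0351), from 18.5 to 23.5 FPKM to 12.3 to 14.4 FPKM. Its groups did not overlap in either comparison, the call with the inhibitor was lost whichever of the 8 libraries was left out, and the responses differed by 0.86 (adjusted p = 0.0688). MKI67, the proliferation marker, fell by 0.92 with VE-822 (adjusted p = 0.0118), from 59.8 to 61.2 FPKM to 29.2 to 36.3 FPKM. CENPF, a kinetochore protein, fell by 0.59 (adjusted p = 0.0212), with the call lost in 5 of the 8 fits without 1 library. Levels of MKI67 in VE-822 alone were above those of all 12 other libraries, with untreated cells at 18.9 to 51.0 FPKM. CENPN, a kinetochore subunit that binds CENPA nucleosomes, rose by 0.48 (adjusted p = 0.00351).

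The promoters of CENPA, PIF1 and PLK1 are shown as genes of the list whose HU response differed with VE-822 and whose window holds the cell cycle homology region, an element known from G2/M promoters. Capitals mark TTTGAA and CCAAT on either strand, which do not overlap here. The windows run from 250 bases before to 20 after the RefSeq start (GRCh38.p14): chr2:26785806-26786075, plus strand, for CENPA, chr15:64825628-64825897, minus strand, for PIF1, and chr16:23678639-23678908, plus strand, for PLK1.
CENPA: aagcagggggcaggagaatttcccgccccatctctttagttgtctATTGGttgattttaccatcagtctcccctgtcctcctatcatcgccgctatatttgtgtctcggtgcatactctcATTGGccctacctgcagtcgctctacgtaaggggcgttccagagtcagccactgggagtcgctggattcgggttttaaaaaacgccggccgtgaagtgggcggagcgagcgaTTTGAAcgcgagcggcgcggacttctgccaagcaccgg
PIF1: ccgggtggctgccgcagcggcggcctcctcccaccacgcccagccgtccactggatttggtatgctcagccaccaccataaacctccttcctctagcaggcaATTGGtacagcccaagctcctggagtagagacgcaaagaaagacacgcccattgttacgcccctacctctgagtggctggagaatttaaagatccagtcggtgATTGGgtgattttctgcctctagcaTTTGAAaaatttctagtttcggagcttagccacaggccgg
PLK1: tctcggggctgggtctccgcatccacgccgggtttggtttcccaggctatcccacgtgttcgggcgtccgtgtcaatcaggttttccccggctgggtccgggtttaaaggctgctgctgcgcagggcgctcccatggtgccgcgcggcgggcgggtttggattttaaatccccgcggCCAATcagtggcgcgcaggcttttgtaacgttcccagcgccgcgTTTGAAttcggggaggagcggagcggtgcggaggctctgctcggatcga
TTTGAA starts at -18 in CENPA, -20 in PIF1 and -29 in PLK1. In the 300-base windows, 29 of the 42 members with a promoter entry held it (69%), against 9.29% of all tested genes with an entry, and 33 held CCAAT (78.6%), against 36.5%. Of the 10 members called in the difference of the responses, 7 had an entry and 4 of these held TTTGAA. Replication-dependent histone genes, whose messages lack poly(A) tails and whose copies can share reads, had 14 of 58 members tested and none was called, with a median of 0.22 that turned to -0.18 without the R1 libraries of both drugs and to -0.02 without that of siNT.

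**Figure D3:**
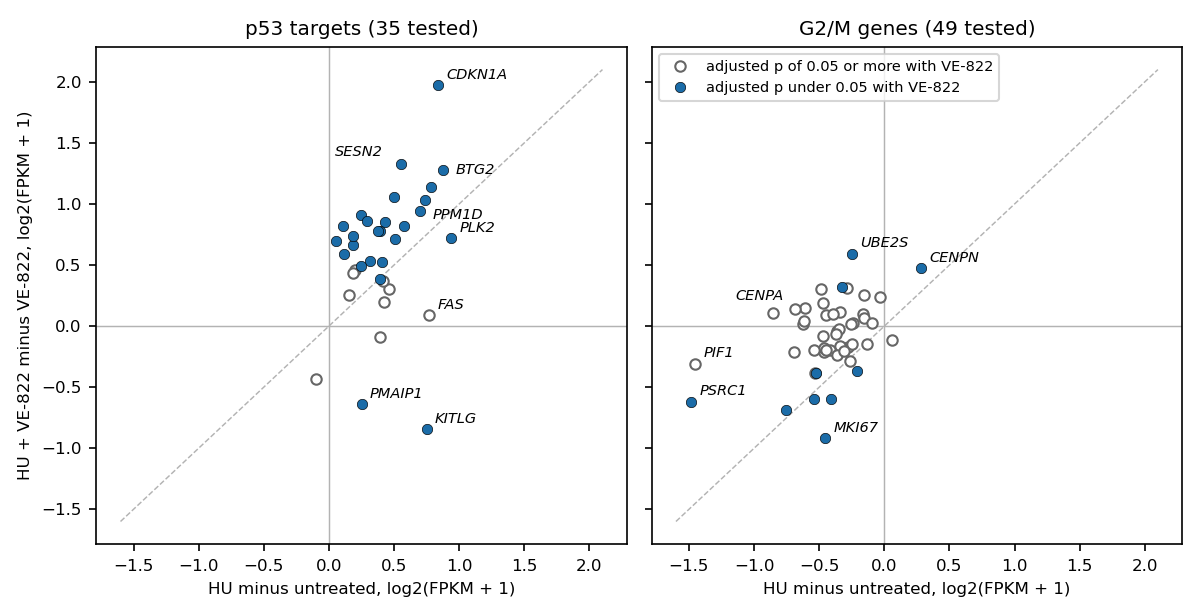
Each point is 1 gene: the HU difference without inhibitor (horizontal) against that with VE-822 (vertical), both in log2(FPKM + 1), from separate libraries; filled points passed the test with VE-822 and the dashed line marks equal differences. Most p53 targets lie above the dashed line (median 0.70 against 0.395), but the difference of the responses was called higher in 2 of 35 and lower in 3. Most G2/M genes lie left of 0 on the horizontal axis and near 0 on the vertical one (median -0.37 against -0.08).

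Genes called in HU without inhibitor were followed into the comparison with VE-822, since no library is shared between the comparisons. ATF3 (chr1:212565334-212620777), a stress-induced transcription factor, rose in both. It stood at 5, 4.07, 6.23 and 3.77 FPKM in untreated cells and at 8.59, 9.82, 9.22 and 8.98 FPKM in HU, a rise of 0.83 (limma adjusted p = 0.0313). As for PPM1D, this call was lost in each of the 8 fits that left out 1 library given VE-822. It stood at 2.27, 2.61, 3.05 and 3.19 FPKM with VE-822 and at 10.1, 9.81, 11.6 and 9.94 FPKM with both drugs, a rise of 1.59 ± 0.12 (adjusted p = 2.93e-05). The responses differed by 0.76 (adjusted p = 0.0227), and every VE-822-alone library was below every untreated one. ITPRIP, which encodes a protein that binds the inositol trisphosphate receptor, rose by 0.69 without and 0.49 with inhibitor. SLC25A27, a mitochondrial carrier, fell by 0.58 without and 0.60 with it. The calls of ITPRIP and SLC25A27 without inhibitor were also lost in each of those fits. With libraries rescaled to the same sum, limma did not call PPM1D, ATF3, ITPRIP, SLC25A27, CENPA or RSPO3 in HU without inhibitor (adjusted p of 0.0569 to 0.115). The VE-822-alone levels of SLC25A27 (3.35 to 3.55 FPKM) lay within those of untreated cells (2.71 to 3.61 FPKM).

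A set of non-coding or pseudogene transcripts fell in both settings. AC090774.2 (chr17:20855946-20857317), an antisense transcript, stood at 8.94, 7.38, 8.04 and 7.34 FPKM with VE-822 and at 2.03, 2.08, 0.891 and 0.964 FPKM with both drugs, a fall of 1.88 ± 0.27 (limma adjusted p = 0.00103), and fell by 2.50 without inhibitor. AC233702.1 (chr17:21614487-21641536), a pseudogene, fell by 1.67 with and 1.84 without inhibitor, AC073464.1 (chr2:94760774-94761116), a processed pseudogene, by 1.15 and 1.80, and ABHD17AP6 (chr17:20814620-20844257), a pseudogene, by 0.48 and 1.05, the first lost in 5 of the 8 fits without 1 library. Without inhibitor, the call of AC073464.1 was lost in each of the 8 fits that left out 1 library given VE-822, those of AC233702.1 and ABHD17AP6 in 2, and that of AC090774.2 in 0. For all 4 the difference between the responses did not pass the test (adjusted p of 0.313, 0.755, 0.259 and 0.0848). These are an antisense transcript and pseudogenes, which by their type resemble or overlap other genes, and the use of strand in counting is not given in the sources used here, so which locus gave the fragments is uncertain.

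RSPO3, a secreted enhancer of WNT signalling, rose in HU without inhibitor by 1.45 (limma adjusted p = 0.0313), from 0.602, 0.785, 2.31 and 0.890 FPKM to 3.97, 3.88, 7.13 and 4.00 FPKM, a call lost in 6 of the 8 fits that left out 1 library given VE-822. With VE-822 alone it already stood at 4.24, 4.42, 6.66 and 7.12 FPKM, and with both drugs at 3.41, 2.83, 7.78 and 4.18 FPKM, a difference of -0.30 ± 0.21 (adjusted p = 0.3). The responses differed by -1.75 (adjusted p = 0.00698). All VE-822-alone libraries were above all untreated ones, and the treatments with HU, VE-822 or both overlapped.

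ATF4, the transcription factor of the integrated stress response, drives genes of the amino acid response. Of 31 tested members of this list, 14 rose (45.2%, against 17.5% of all genes) and none fell (against 12%). The median was 0.375, against 0.06 in HU without inhibitor. Against untreated cells, the median was 0.39 with both drugs and 0.12 with VE-822 alone, so the list's median was above 0 against untreated cells as well. MTHFD2 (chr2:74198562-74217565), a mitochondrial folate enzyme, and PSAT1 (chr9:78297143-78330093), a serine synthesis enzyme, were among the genes in which the libraries with both drugs lay above all 12 others. MTHFD2 stood at 18.2, 15.2, 19.6 and 16.6 FPKM with VE-822, at 33.9, 31.0, 38.7 and 35.5 FPKM with both drugs and at 21.3 to 30.7 FPKM in the other 8 libraries. It rose by 0.96 ± 0.10 (limma adjusted p = 0.000195), and the HU responses with and without inhibitor differed by 0.72 (adjusted p = 0.0143). PSAT1 stood at 8.81, 7.59, 10.0 and 10.7 FPKM with VE-822, at 14.5, 15.8, 16.7 and 18.8 FPKM with both drugs and at 9.83 to 13.7 FPKM in the other 8, and it rose by 0.77 ± 0.10 (adjusted p = 0.000434).

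PSPH, the next enzyme of serine synthesis, rose by 1.13 (limma adjusted p = 0.00107). CHAC1, which degrades glutathione, stood at 1.36, 1.72, 2.62 and 3.03 FPKM with VE-822 and at 5.22, 3.42, 8.11 and 5.67 FPKM with both drugs, and rose by 1.04 ± 0.16 (adjusted p = 0.0012). Its VE-822-alone levels overlapped those of untreated cells, which held 1.72 to 3.39 FPKM, and within each siRNA its levels with both drugs were above those of HU alone, 2.30 and 3.36 FPKM with siNT and 2.72 and 3.48 FPKM with siSETD2. ATF4 itself rose by 0.42 (adjusted p = 0.0389), DDIT3, which encodes CHOP, by 0.78 (adjusted p = 0.0366) and TRIB3, a target of both, by 0.65 (adjusted p = 0.0104). The calls of ATF4 and DDIT3 were each lost in 6 of the 8 fits that left out 1 library, and both with 75th percentile scaling. CHAC1, ATF4, DDIT3 and TRIB3 are named after their values were seen. Not all of the list moved: SLC7A11, ASNS and SLC3A2, an amino acid transporter subunit, asparagine synthetase and a transporter partner, had differences of 0.23, -0.00 and 0.03.

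The CHAC1 promoter is shown because CHAC1 was the rising member of this list with a match to the composite site bound by CEBP and ATF4 dimers, searched as TGATGNAA on either strand and marked in capitals. The window is chr15:40953221-40953490 on the plus strand, from 250 bases before to 20 after the RefSeq start (GRCh38.p14), and the match starts at -209.
CHAC1: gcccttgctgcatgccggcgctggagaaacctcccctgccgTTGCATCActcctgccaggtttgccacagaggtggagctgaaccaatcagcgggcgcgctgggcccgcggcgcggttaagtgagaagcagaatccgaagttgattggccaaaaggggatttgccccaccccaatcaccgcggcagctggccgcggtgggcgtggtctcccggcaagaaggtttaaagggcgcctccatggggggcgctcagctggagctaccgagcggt
In 300-base windows, 4 of the 20 list members with an entry held this motif (20%), against 1.66% of all tested genes with an entry. They were CHAC1, ASNS, SLC3A2 and SLC7A1.

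Of the 82 genes called higher in which the libraries with both drugs lay above all 12 others, 4 more are given, named after their values were seen. CA2, a carbonic anhydrase, stood at 4.08, 5.06, 5.35 and 5.36 FPKM with both drugs, at 1.25 to 2.55 FPKM with VE-822 and at 1.49 to 3.72 FPKM in the other 8 libraries. SNAI1, a transcriptional repressor of the epithelial programme, stood at 8.23, 7.56, 9.62 and 7.66 FPKM against 3.73 to 4.41 and 5.28 to 7.42 FPKM. SH2B3, an adaptor of cytokine signalling, and SRF, the serum response factor, rose by 0.94 and 0.61. In all 4 the HU responses with and without inhibitor differed, by 0.95, 0.85, 0.84 and 0.69 (limma adjusted p = 0.00555, 0.00773, 0.0066 and 0.00689). Of the 34 called lower and below all 12 others, SH3RF2, a ubiquitin ligase, fell by 0.76 and TTC13 by 0.69; these were also named after their values were seen.

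Immediate early and AP-1 genes, which respond to growth factor and stress kinases, rose in 14 of 31 members (45.2%, against 17.5% of all genes). They fell in 4 (12.9%, against 12%), and the median was 0.38. FOSL1, an AP-1 subunit, stood at 27.5, 24.2, 27.7 and 27.8 FPKM with VE-822 and at 67.6, 70.8, 81.9 and 71.5 FPKM with both drugs and rose by 1.41 ± 0.16 (limma adjusted p = 0.000269). Untreated cells and HU held 45.5 to 77.7 FPKM of it, so the VE-822-alone libraries were the low ones. JUN and FOS, the founding AP-1 subunits, did not pass, with 0.38 (adjusted p = 0.137) and -0.15 (adjusted p = 0.474). EREG, a ligand of the epidermal growth factor receptor, fell by 1.84 and PHLDA1, a target of MAP kinase signalling, fell by 1.43, both from VE-822-alone levels above all 12 other libraries. VE-822-alone libraries were below all others in 7 of the 31 genes and above them in 3. Over all genes tested the shares were 10.7% and 8.12%.

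Targets of YAP-TEAD and of serum response factor, which respond to actin tension, rose in 17 of 32 members (53.1%, against 17.5% of all genes). They fell in 1 (3.12%, against 12%), and the median was 0.48. FLNC, an actin cross-linker, stood at 72.7, 68.9, 69.9 and 71.8 FPKM with VE-822 and at 227, 202, 223 and 172 FPKM with both drugs, a rise of 1.52 ± 0.17 (limma adjusted p = 0.000201). Untreated cells held 321, 181, 166 and 188 FPKM of FLNC and the median of the list against untreated cells was 0.025 with both drugs and -0.38 with VE-822 alone. ACTN1, an actin-binding protein, rose by 0.86, TPM2, a tropomyosin, by 0.76 and LATS2, a kinase that restrains YAP, by 0.68. In 10 of the 32 genes the VE-822-alone libraries were below all others, against 10.7% of all genes.

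Interferon-stimulated genes were the list with the largest share called lower (51.4%, against 12% of all genes): 19 of 37 fell, none rose, and the median was -0.55, against -0.01 in HU without inhibitor. BST2, an antiviral membrane protein, stood at 8.42, 10.1, 8.31 and 9.65 FPKM with VE-822, at 2.19, 2.34, 2.79 and 2.6 FPKM with both drugs and at 1.61 to 3.35 FPKM in the other 8 libraries. It fell by 1.54 ± 0.16 (limma adjusted p = 0.000165). CXCL10, a chemokine, fell by 1.52 (adjusted p = 0.000132) from 1.74 to 5.62 FPKM to 0.302 to 1.12 FPKM, and OASL and PARP9, both induced by interferon, fell by 0.95 and 0.97. B2M, the light chain of class I antigen complexes, fell by 0.59. It was named after its values were seen, and 7 of the 8 fits without 1 library lost the call of B2M. In 15 of the 37 genes the VE-822-alone libraries were above all 12 others, against 8.12% of all genes. Relative to untreated cells the median of the list was 0.53 with VE-822 alone and 0.06 with both drugs. With libraries rescaled to the same sum, 11 members (29.7%) were called lower, against 8.34% of all genes. This was a smaller share than the 38.7% of the matrix and TGF-beta list.

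NF-kB targets and cytokines gave 5 higher and 5 lower of 23 (21.7% each, against 17.5% and 12% of all genes). CCL5, a chemokine, stood at 18.1, 18.3, 41.5 and 38.0 FPKM with VE-822 and at 7.78, 5.83, 5.77 and 6.87 FPKM with both drugs, and fell by 1.89 ± 0.16 (limma adjusted p = 5.04e-05). BIRC3, an inhibitor of apoptosis, and SOD2, the mitochondrial superoxide dismutase, fell by 1.20 and 0.92. IL11, a cytokine of the interleukin 6 family, rose by 1.28 (adjusted p = 0.00105) and had a difference of 0.86 in HU without inhibitor (adjusted p = 0.163). All 23 members had a difference above 0 in HU without inhibitor, with a median of 0.46, and 11 of 23 did with VE-822, with a median of -0.05 that turned positive with libraries rescaled to the same sum (0.05) and without the R1 library of siNT (0.20) or of siSETD2 (0.04) with both drugs or the R2 library of siNT with VE-822 (0.08). The difference of the responses was called lower in 6 members and higher in none, against 4.88% and 5.03% of all genes, and lower in 3 to 7 with 1 library left out. Against untreated cells the median was 0.65 with VE-822 alone and 0.60 with both drugs.

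Extracellular matrix and TGF-beta genes fell in 12 of 31 members (38.7%, against 12% of all genes). They rose in 1 (3.23%, against 17.5%), and the median was -0.48. TGFBR2, the type II TGF-beta receptor, stood at 92.3, 104, 84.9 and 84.6 FPKM with VE-822 and at 24.7, 36.2, 22.2 and 32.9 FPKM with both drugs, a fall of 1.64 ± 0.14 (limma adjusted p = 4.96e-05), with untreated cells at 20.8 to 35.6 FPKM. COL5A1, a fibrillar collagen chain, fell by 2.00 and COL6A1, a microfibrillar collagen chain, by 0.90. In 12 of the 31 the VE-822-alone libraries were above all others, against 8.12% of all genes. Relative to untreated cells the median of the list was 0.46 with VE-822 alone and -0.06 with both drugs. Of 4 tested fibroblast markers 2 were called lower. LUM and PDGFRA fell, while THY1 (16.2 to 21.6 FPKM with VE-822, 9.42 to 22.0 FPKM with both drugs) and PDGFRB (2.03 to 2.85 and 0.531 to 2.49 FPKM) overlapped. The summed level of 6 fibroblast markers was 27.0 to 32.9 FPKM with VE-822, 12.6 to 27.7 FPKM with both drugs and 14.6 to 33.4 FPKM in the other 8 libraries. DCN and COL1A2, also fibroblast markers, were below 0.1 FPKM. Their part in the result was not tested.

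**Figure D4:**
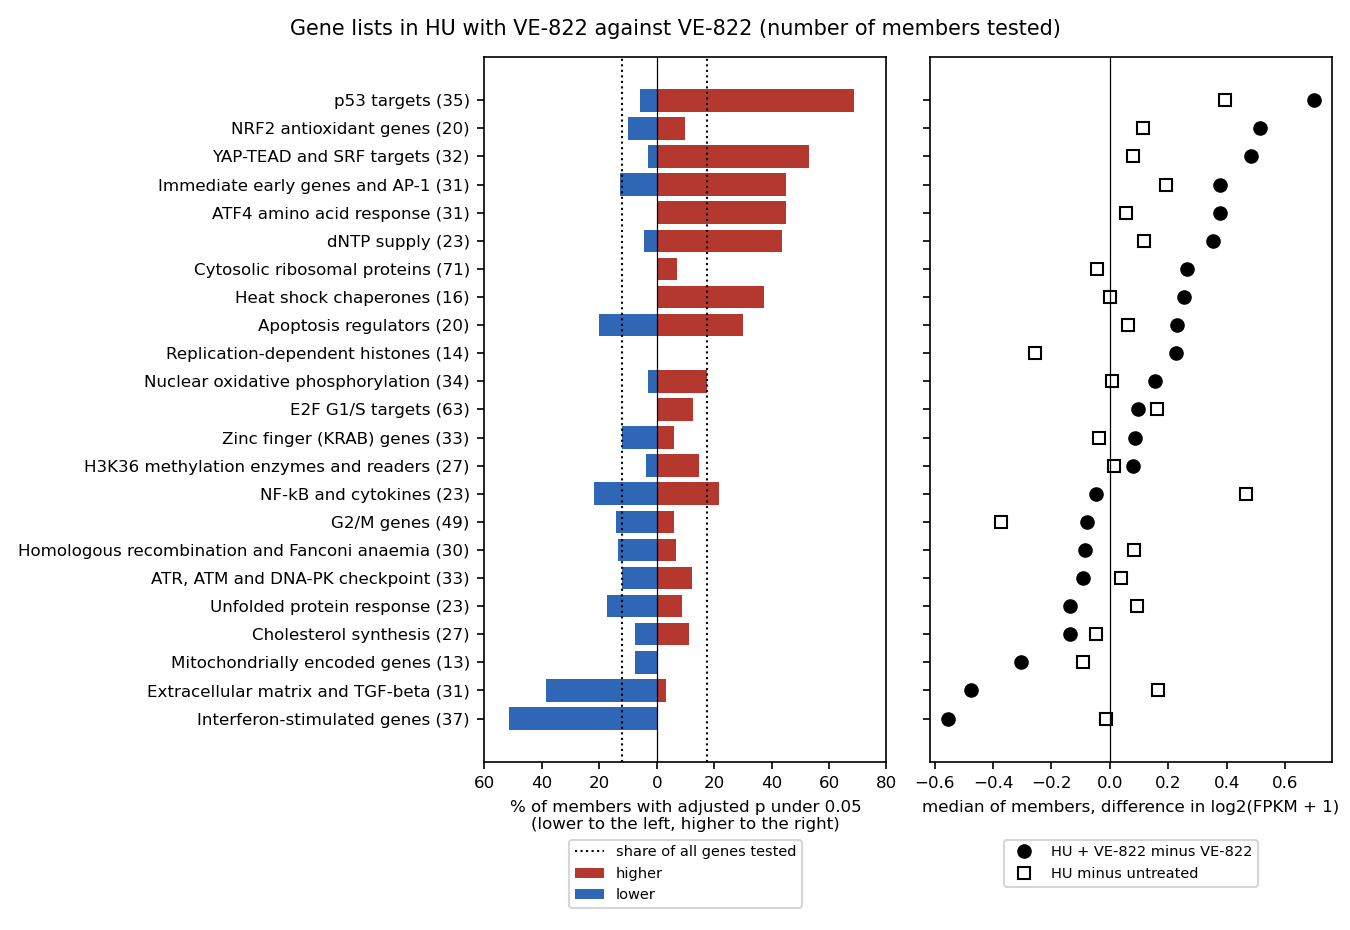
Left, share of each list's tested members called lower (blue, to the left) or higher (red, to the right) with HU and VE-822 against VE-822, in %, with dotted lines at the share of all genes tested (12% lower, 17.5% higher). Right, median log2 difference of each list with VE-822 (filled circles) and without it (open squares); the p53 list lies at 0.70 and 0.395, the interferon list at -0.55 and -0.01 and the G2/M list at -0.08 and -0.37.

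Apoptosis regulators split between 6 called higher and 4 called lower of 20 (30% and 20%, against 17.5% and 12% of all genes). BID, a pro-apoptotic protein cut by caspase 8, rose by 1.03 and BCL2L1, which encodes BCL-XL, rose by 0.64, while BCL2L11, which encodes the pro-apoptotic BIM, fell by 0.75 from 3.82 to 4.71 FPKM to 1.75 to 2.36 FPKM. Untreated cells held 1.16 to 1.84 FPKM of BCL2L11 and 5.91 to 10.8 FPKM of BID, so that for both genes the VE-822-alone libraries were the ones apart. Of 16 heat shock chaperones, 6 rose (37.5%, against 17.5% of all genes), among them HSPA4, BAG3, HSPD1 and HSPE1 by 0.46 to 0.57. However, with every single library left out no more than 3 were called, and 0 in at least 1 case. In those fits 10.2% to 15.2% of all genes were called higher. Cytosolic ribosomal protein genes rose in 5 of 71 (7.04%, against 17.5% of all genes), with a median of 0.26 and 67 of 71 differences above 0. With libraries rescaled to the same sum 16 were called (22.5%, against 19.3% of all genes called higher). MT-CO2 was the only 1 of 13 mitochondrially encoded genes called (7.69% lower, against 12% of all genes). Its fall of 0.58 lost its call whichever of the 8 libraries was left out. Of 34 nuclear genes of oxidative phosphorylation, 6 rose (17.6%, near the 17.5% of all genes) and 1 fell (2.94%, against 12%). Genes of the unfolded protein response (2 higher and 4 lower of 23), the NRF2 response (2 and 2 of 20), cholesterol synthesis (3 and 2 of 27), H3K36 methylation (4 and 1 of 27) and KRAB zinc fingers (2 and 4 of 33) had smaller shares called higher than the 17.5% of all genes. Their shares called lower were 17.4%, 10%, 7.41%, 3.7% and 12.1%, in the same order, against 12% of all genes. With libraries rescaled to the same sum, 9 H3K36 methylation genes (33.3%) were called higher and 0 lower, above the 19.3% of all genes, while the other 4 of these lists stayed below it.

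In each of the 12 rising and 12 falling genes with the largest changes, chosen among genes whose groups did not overlap, the VE-822-alone libraries were outside the range of all 12 others. PCDH7 (chr4:30720415-31146805), a protocadherin, stood at 27.4, 36.8, 31.5 and 31.1 FPKM with VE-822 and at 1.06, 6.79, 0.667 and 6.19 FPKM with both drugs, a fall of 3.13 ± 0.58 (limma adjusted p = 0.00332). Untreated cells held 0.839, 2.17, 0.519 and 1.90 FPKM of it, and with both drugs the R2 libraries were above the R1 libraries. BMP4, a growth factor of the TGF-beta family, fell by 2.75 ± 0.26 (adjusted p = 8.4e-05) from 30.5 to 40.4 FPKM to 2.48 to 5.54 FPKM, with untreated cells at 2.86 to 7.50 FPKM. NGFR, the low-affinity neurotrophin receptor, fell by 2.68 ± 0.19 from 6.50 to 10.1 FPKM to 0.314 to 0.856 FPKM, and HTR3A, a serotonin-gated channel subunit, by 2.73. CYP24A1, which inactivates vitamin D, and CA9, a carbonic anhydrase known for its induction by hypoxia, fell by 2.84 and 2.68. CA9 stood at 0.0407 and 0.165 FPKM in R1 and 3.58 and 3.08 FPKM in R2 with both drugs, so R1 and R2 stood far apart, and 5 of the 8 fits without 1 library lost its call.

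In the other direction, ESM1, a secreted proteoglycan, had the largest rise (2.69 ± 0.59, limma adjusted p = 0.00773), from 7.32, 6.23, 16.4 and 14.3 FPKM to 66, 45.3, 124 and 70.1 FPKM. MARCH4, a membrane ubiquitin ligase, rose by 2.15 ± 0.15 (adjusted p = 2.38e-05) from 3.19 to 4.53 FPKM to 17.5 to 20.9 FPKM, with untreated cells at 18.5 to 29.4 FPKM. SNAPC1, a subunit of the complex that activates small nuclear RNA genes, rose by 1.85 ± 0.13 from 8.21 to 11.2 FPKM to 33.7 to 38.0 FPKM, with untreated cells at 24.9 to 37.8 FPKM. G0S2, an inhibitor of fat breakdown, and FRMD6, an upstream regulator of the Hippo pathway, rose by 2.09 and 2.04. Of these 12 rising and 12 falling genes, ATF3 alone passed the test in HU without inhibitor.

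**Figure D5:**
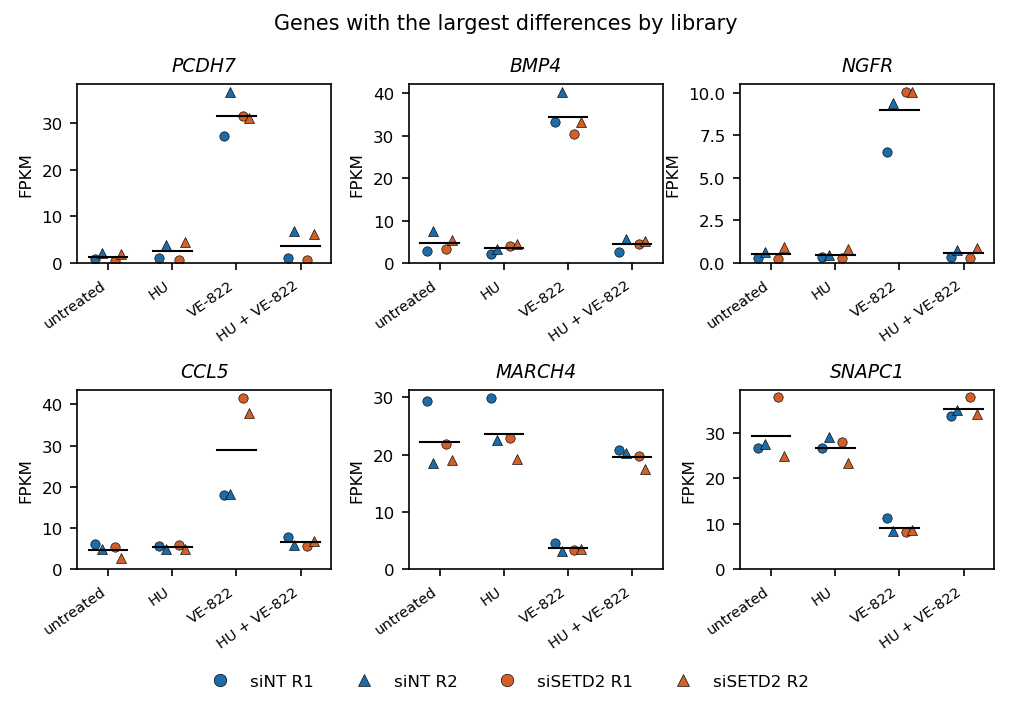
FPKM in each of the 16 libraries (vertical axis, from 0) for 6 genes with large differences, by treatment; colour marks the siRNA, the symbol R1 or R2, and the bar is the mean of 4 libraries. In PCDH7, BMP4, NGFR and CCL5 the 4 VE-822-alone libraries were above all others, and in MARCH4 and SNAPC1 they were below all others.

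The response to HU with VE-822 was not called different between the siRNAs for any gene. Tested within each siRNA, HU with VE-822 against VE-822 gave 895 calls with siNT (6.84%), 448 higher (3.42%) and 447 lower (3.42%), and 1553 with siSETD2 (11.9%), 908 higher (6.94%) and 645 lower (4.93%). The difference of the response between siRNAs was called in 0 of 13088 genes by limma on log2(FPKM + 1) and in 0 by limma voom on recovered fragments, with 94 and 64 genes at an unadjusted p under 0.05. With a replicate block over all 8 groups or in the 8 libraries, limma also called 0, with 205 and 419 genes at that unadjusted p. With 2 libraries in each group, 0 calls do not show that the responses were alike. The list medians were 0.73 with siNT and 0.605 with siSETD2 for p53 targets, 0.39 and 0.40 for the ATF4 list and -0.41 and -0.66 for interferon-stimulated genes. CCL5 fell by 1.31 with siNT and 2.48 with siSETD2, from VE-822-alone levels that were higher with siSETD2, and CXCL10 fell by 1.13 and 1.92. CDKN1A rose by 2.04 and 1.91, PPM1D by 0.85 and 1.04, and CDC25A by 0.86 and 1.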

How the data were processed

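RNA-seq of 16 U2OS libraries, 2 for each of 8 combinations of siRNA and drug, was analysed from FPKM values that the authors deposited for 58735 genes. Per the submitters' processing notes, FastQC, STAR 2.6.1d, featureCounts 1.5.0-p3, DESeq2 1.26.0 and the build hg38 were used. Which settings were used, strand included, is not given in the sources used here. Dividing FPKM by the value of 1 fragment gave whole fragments within 0.01, with 22310806 to 31101932 per library. The test, limma 3.58.1 (R 4.3.3), took log2(FPKM + 1) of every gene whose mean reached 1 FPKM, with 1 mean for each of the 8 groups and Benjamini-Hochberg adjustment over all 13088 genes. A call is an adjusted p under 0.05. The log2(FPKM + 1) scale understates changes of low genes. The script was tested on simulated data.

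Genes named were the 12 largest rises and falls without overlap and with at least 5 FPKM in the higher group, up to 4 members of each list by p, up to 8 genes for each difference between responses, up to 12 genes called in HU alone, a fixed set of cell cycle and stress genes, and those stated as named after their values were seen. The members and lists were chosen with earlier results of these data known. Gene positions are from GENCODE release 29, and promoters are from RefSeq (GRCh38.p14), matched by symbol for 8805 of the 13088 genes. Alternatives were other pseudocounts, filters, scalings, voom on recovered fragments, a replicate block and leaving out libraries. A few genes that the naming rule or the text would have given are not reported here.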

Additional observations from a re-analysis of the deposited data

Results flagged for a closer look

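The response to HU with VE-822 differed from that without it in 1297 of 13088 genes (9.91%) by the limma test of the difference itself. Of the 172 named genes 81 are among them, 17 of these named only after their values were seen. Genes were named partly by this test and by the main comparison that enters it, so this count follows from the choice of genes. The 8 with the smallest adjusted p, and 4 that also passed the test in HU without inhibitor, are given here. The VE-822-alone libraries enter each of these values, and a contribution of a batch was not tested.

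In the first 8 the VE-822-alone libraries were outside the range of the 12 others, and the HU difference without inhibitor did not pass the test. The difference of the responses was -1.92 for MMP16, a matrix metalloproteinase, 1.31 for CNRIP1, a binding partner of the cannabinoid receptor, -1.37 for SLC5A3, a myo-inositol transporter, and -1.73 for REEP6, a protein of the endoplasmic reticulum. It was -2.21 for SEMA3C, a secreted semaphorin, -2.11 for RAB27B, a GTPase of secretion, -1.37 for SLC12A8, a transporter, and -1.35 for H6PD, an enzyme of the endoplasmic reticulum.

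In the other 4 the HU difference passed the test in cells without inhibitor. The difference of the responses was 0.76 for ATF3, 0.97 for CENPA, 1.08 for RF00019, an annotated small RNA with near-identical copies whose level is uncertain, and -1.75 for RSPO3.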

How the results depend on the processing

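No named gene changed direction past the threshold, but the balance of calls did turn. The 2286 higher and 1571 lower became 1668 and 1991 with 75th percentile scaling. They became 2148 and 2329 with a minimum mean of 0.1 FPKM, and 1875 and 2537 with no filter on low values. The balances of the G2/M and recombination lists turned with libraries rescaled to the same sum, where 19.3% of all genes were called higher and 8.34% lower. The 3857 calls became 2523 with a minimum mean of 5 FPKM, 1520 without both R1 libraries of HU with VE-822 (chosen after seeing the data), and 2269 to 3507 with 1 library left out. In siNT the 895 calls became 473 with that minimum, 451 after rescaling to the same sum, 1373 in the 8 libraries alone, 128 without those R1 libraries and 126 to 762 with 1 library left out. In siSETD2 the 1553 calls became 2356 in the 8 libraries alone, 116 without those R1 libraries and 136 to 1333 with 1 library left out. The 0 calls between siRNAs became 20 with no filter on low values and 0 to 1 with 1 library left out. The 1297 calls with against without inhibitor became 833 with the minimum of 5 FPKM, 806 after rescaling, 261 without those R1 libraries and 543 to 1294 with 1 library left out. The 14 calls in HU alone became 46 with no filter, 8 after rescaling, 9 with voom, 0 without those R1 libraries and 3 to 7 with 1 library left out. The cause was not tested.

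R1 and R2 are only numbers in the labels. The R1 minus R2 differences correlated across genes at r 0.363 to 0.746 between groups other than VE-822 alone and at 0.196 to 0.295 between VE-822 alone and HU with VE-822. Between VE-822 alone and untreated cells r was -0.0517 to 0.0238, and between VE-822 alone and HU alone it was 0.0252 to 0.234. For VE-822 alone, siNT against siSETD2, r was 0.395. With the replicate block over all 8 groups the calls were 5715 in the main comparison, 2513 in siNT, 3664 in siSETD2, 3319 with against without inhibitor and 45 in HU alone. With the replicate block in the 8 libraries they were 6247, 3084 and 4196. The list medians of E2F targets, checkpoint, recombination, G2/M, histone, NF-kB and zinc finger genes changed sign under at least 1 setting, the last to -0.01 without those R1 libraries. Precision is limited by the 2 libraries in each group, and the part of depth was not tested.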
